A study of Mus musculus with 6 samples.

Results

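The forkhead (FOX) and SOX transcription factors were taken as the protein-coding mouse genes whose symbol is Fox followed by a letter from a to s, a number and at most one letter a or b, or Sox followed by a number. Foxm1 was left out. This naming rule gave 62 genes, 43 of them Fox and 19 Sox, of the 55401 genes in the count tables.

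The cells were NIH3T3, an immortalised line of mouse embryonic fibroblasts, and poly(A) RNA was sequenced in 6 libraries. The EV group (2 libraries) carried an empty vector and received DMSO, the vehicle. The TC group (1 library) expressed TAZ-CAMTA1, a fusion of the coactivator TAZ with CAMTA1 that pairs with TEAD transcription factors, and also received DMSO. The TC + ATA group (3 libraries) expressed TAZ-CAMTA1 and received 10 μM aurintricarboxylic acid (ATA), the compound that the study examined as a disruptor of TAZ-TEAD binding. Cells in all groups were seeded 16 h before treatment and treated for 48 h. TC versus EV asks what expression of the fusion goes with, and TC + ATA versus TC asks what treatment of fusion-expressing cells goes with. TC + ATA versus EV sets treated fusion-expressing cells against cells without the fusion.

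Total counts were 74413193 and 70428345 for EV, 71677675 for TC, and 58471484, 72252063 and 69969024 for TC + ATA. Levels are given as CPM, the usual unit of counts scaled to the library total, here after TMM normalization. A count of 0 allows up to 3 counts, which is between 0.0393 and 0.0528 CPM in these libraries, a limit that covers counting error only. The EV libraries stood farther apart than the TC + ATA libraries, with a chi-square per degree of freedom over genes of 61.3 against 5.86 to 6.61. TC has a single library, so no difference from TC has a replicate check on that side, and the spread came from EV and TC + ATA with 3 residual degrees of freedom. The labels do not say whether replicates are separate cultures, so they may be technical. The same TC library enters the comparison with EV and the comparison with TC + ATA, in opposite roles, so their values are not independent.

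FOX proteins bind DNA through a winged-helix domain, and SOX proteins bind and bend it through an HMG box related to that of SRY. FOX subfamilies shape mesenchyme and vessels (FOXF, FOXC), couple growth-factor signalling to stress and cell-cycle genes (FOXO) and act as repressors (FOXP, FOXK), while SOX groups mark progenitor states (SoxB, SoxC) and build cartilage and neural crest derivatives (SoxD, SoxE). In fibroblasts and other connective tissue cells, several FOX genes are used as markers of the position from which the cells came.

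The fibroblast label was checked against 11 marker genes, all of which had a mean of at least 1 CPM. Their summed level was 16870 and 14730 CPM in EV, 18600 CPM in TC, and 19400, 19150 and 18210 CPM in TC + ATA, and Col1a2 had the highest CPM, at a mean of 6448. In TC versus EV, 2 of these markers were called higher (4 without EV replicate 1, 1 without TC + ATA replicate 2) and 5 were called lower. Those called higher were Col1a1 and Vim, and those called lower were Dcn, Thy1, Lum, Pdgfra and Fn1, with log2 fold changes of −2.08, −1.47, −1.27, −1.20 and −0.83. Detection of all 11 in every library does not by itself tell fibroblasts from other cells, since markers of endothelium and muscle also had counts in every library. Bulk RNA does not tell fewer cells that use a gene from less RNA of that gene per cell, and this applies to every Fox and Sox gene described here.

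Of the 62 members, 35 (25 Fox and 10 Sox) passed edgeR's filter on low counts and were tested, among 18539 genes tested in all. Averaged over the libraries, 24 of them (20 Fox and 4 Sox) reached 1 CPM. Another 11 were tested at a lower mean, 5 Fox and 6 Sox, and 27 were not tested. Of these 27, 15 had 0 counts in every library and 12 had counts, with at most 10 in any library.

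Levels of different members were compared as CPM per kb of exonic length (GENCODE M21), with the order by CPM alone as an alternative. Sox4, a SoxC factor, ranked 1 on this scale, with 41.8 and 46.6 CPM per kb in EV, 29.8 in TC and 31.8, 33.0 and 29.9 in TC + ATA. Sox12, Foxk2 and Foxp4 were also among the first 5, and all 6 libraries of these 3 genes lay between 19.0 and 27.0 CPM per kb. Foxc2, Foxf2, Foxo4, Sox9 and Foxf1 had ranks 6 to 10. Over the 6 libraries, the ranges of plotted neighbours in this order overlapped, with 3 exceptions. Sox4 (29.8 CPM per kb at its lowest) stood apart from Sox12 (27.0 at its highest), Foxp4 (19.0 CPM per kb at its lowest) stood apart from Foxc2 (15.7 at its highest), and Foxo3 (4.34 at its lowest) stood apart from Foxp1 (4.09 at its highest). At the lower end of the 24, Foxo6 lay between 0.209 and 0.762 CPM per kb and Sox5 between 0.268 and 0.738. Ranked by CPM without length, Sox4 kept rank 1, whereas Foxc2 moved from rank 6 to 14 and Foxf1 from 10 to 17.

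**Figure D1:**
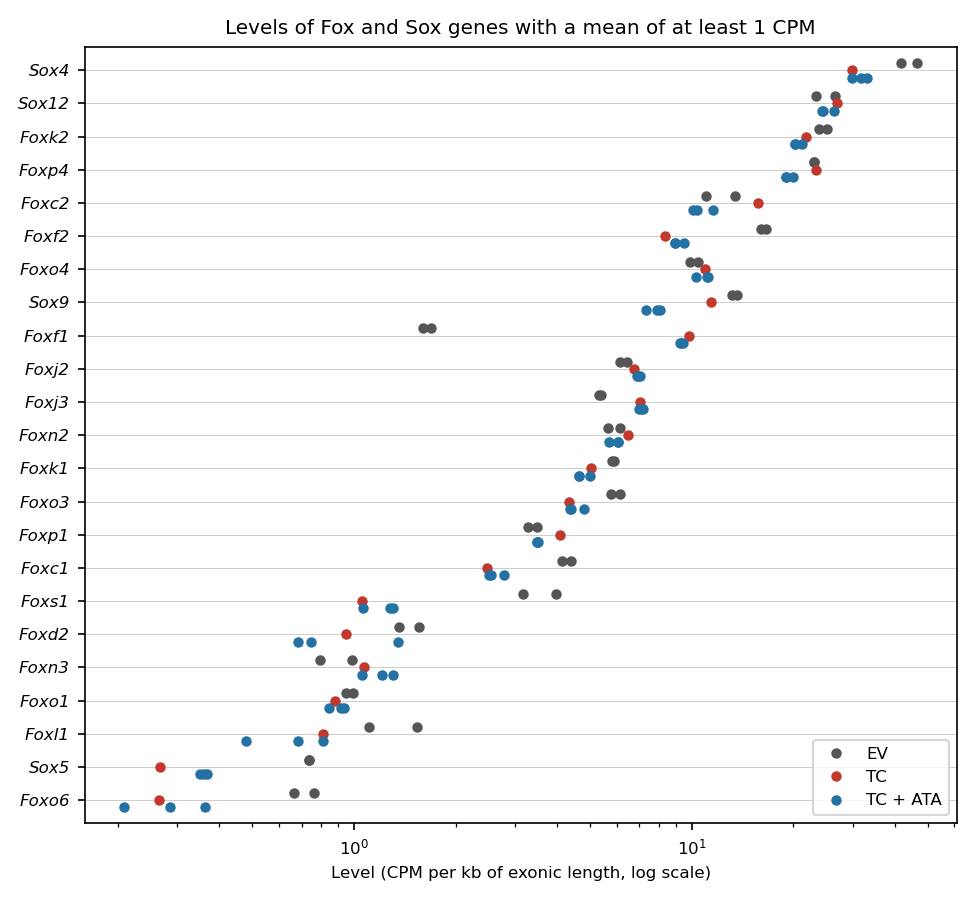
Level of Fox and Sox genes with a mean of at least 1 CPM, in CPM per kb of exonic length on a log scale; each point is 1 library (EV grey, TC red, TC + ATA blue). Foxf1 is the gene whose EV points, at 1.60 and 1.69 CPM per kb, lie farthest from its other points, which run from 9.22 to 9.79.

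In TC versus EV, 3 of the 35 tested members were called higher (8.57%) at an adjusted p of at most 0.05 (edgeR's quasi-likelihood test, Benjamini-Hochberg adjustment over all genes tested), beside 14.8% of all genes tested. They were Foxf1, Foxj3 and Foxp1. Another 8 were called lower (22.9%), beside 13.2% of all genes tested, among them Foxc1, Foxf2, Foxo3, Foxo6, Foxs1, Sox4 and Sox5. With an absolute log2 fold change of at least 2 required as well, Foxf1 was the 1 member called higher, beside 2.36% of all genes. By the same limits edgeR called 0 members lower, beside 1.27% of all genes, and DESeq2 also called 0. Without the fold limit, 11 members were lower at an unadjusted p under 0.05. The median log2 fold change was −0.14 over the 25 Fox genes and −0.10 over the 10 Sox genes, and −0.03 over all genes tested. With all libraries no Sox gene was called higher: edgeR and DESeq2 each gave 0, and 0 had an unadjusted p under 0.05. Without EV replicate 1, edgeR called Sox12 higher.

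These counts moved when 1 EV library was left out, as did those over all genes. Without EV replicate 1, edgeR's calls came to 5 members higher and 12 lower, and to 3746 and 3708 of all genes. Foxc2, Foxk1, Foxk2, Foxl1, Sox12 and Sox9 were added, with Sox12 called higher. Without EV replicate 2, 14 members were called, beside 3728 genes higher and 3601 lower over all genes. Foxk1, Foxn3 and Foxp3 were added, and Foxp3 then passed the fold limit as 1 member lower. Under the 12 alternatives that kept the null hypothesis of no change, the calls of Foxc1, Foxf1, Foxf2, Foxs1, Sox4 and Sox5 held in all 12. Foxj3, Foxo3, Foxo6 and Foxp1 each lost the call in at least 1 of them. Scaling by library size alone shifted the median log2 fold change of all genes by −0.11 in TC versus EV, and the split over all genes was then 2072 higher and 3160 lower, against 2735 higher and 2456 lower with TMM.

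**Figure D2:**
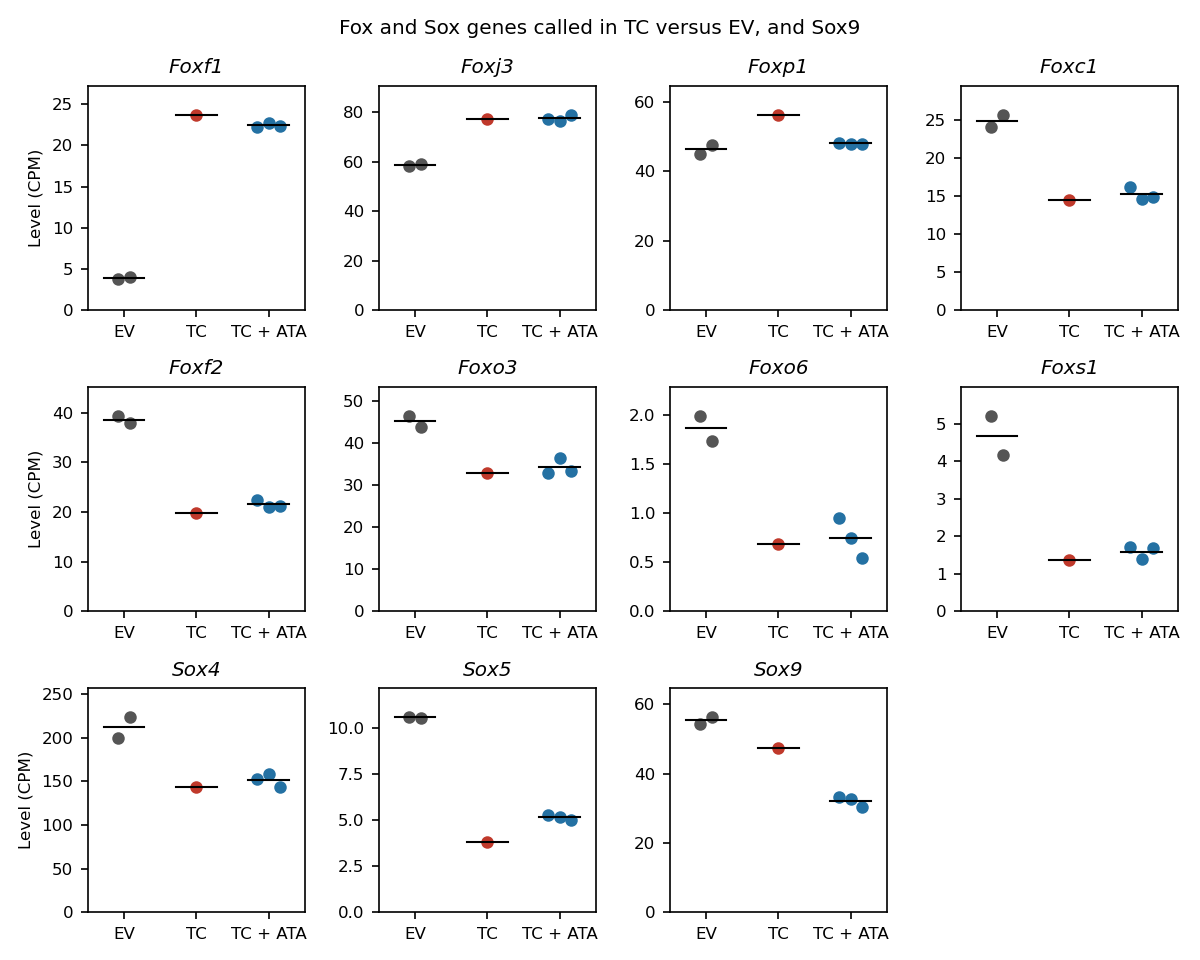
Level in CPM of Fox and Sox genes called in TC versus EV and of Sox9; each point is 1 library and each line a group mean, with axes starting at 0. In the panel of Foxf1 the EV libraries are at 3.86 and 4.09 CPM and the others between 22.3 and 23.7 CPM, and in the panel of Sox9 the TC + ATA libraries are between 30.3 and 33.4 CPM, under the TC library at 47.3 CPM.

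The FOXF factors act in the mesenchyme of lung, gut and limb, where Hedgehog signals induce them. Foxf1 (ENSMUSG00000042812, chr8:121084386-121088144, plus strand, GRCm38) had 3.86 and 4.09 CPM in the EV libraries, 23.7 CPM in TC and 22.3, 22.8 and 22.4 CPM in TC + ATA. These correspond to 289 and 312 counts in EV, 1642 in TC and 1266, 1613 and 1559 in TC + ATA. The EV libraries were low and all 4 fusion-expressing libraries were high, with no overlap. Lack of overlap is not particular to Foxf1. Of the 24 members with a mean of at least 1 CPM, 10 had the single TC library above both EV libraries and 14 below. The share over all genes was not counted. Foxf1 had a log2 fold change of 2.57 in TC versus EV (SE 0.102, adjusted p = 7.52e-07 by edgeR's quasi-likelihood test with Benjamini-Hochberg adjustment), a 5.94-fold difference. Over 13 alternatives it stayed between 2.46 and 2.61 and was called in all 13. Foxf1 shares 98 exonic bases with Gm27530 on the opposite strand, which had 0 counts in every library.

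Foxf2 (ENSMUSG00000038402, chr13:31625816-31631403, plus strand), the close relative of Foxf1, had 39.3 and 37.9 CPM in EV, 19.8 CPM in TC and 22.4, 21.1 and 21.1 CPM in TC + ATA. The order was the opposite of that of Foxf1, with both EV libraries above all 4 fusion-expressing ones. TC versus EV gave Foxf2 a log2 fold change of −0.97 (SE 0.0974, adjusted p = 1.05e-04 by edgeR's quasi-likelihood test with Benjamini-Hochberg adjustment), and it ran from −1.07 to −0.95 over 13 alternatives. On the per-length scale Foxf1 was at 1.65 CPM per kb in EV and 9.79 in TC, whereas Foxf2 was at 16.3 in EV and 8.36 in TC. The sum over both genes was 18.2 and 17.8 CPM per kb in EV, 18.2 in TC and 18.7, 18.4 and 18.2 in TC + ATA. The summed FOXF level thus lay within a narrow range in all libraries. Foxf2 was the more abundant FOXF gene in both EV libraries, and Foxf1 in the single TC library. In TC + ATA replicate 1, Foxf2 was above Foxf1 (9.48 against 9.22 CPM per kb), and in replicates 2 and 3 Foxf1 was above Foxf2 (9.42 against 8.93, and 9.28 against 8.94).

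The FOXC factors take part in the development of vessels, lymphatics, skeleton and the eye. Foxc1 (ENSMUSG00000050295, chr13:31806633-31812476, plus strand) had 24.1 and 25.7 CPM in EV, 14.5 CPM in TC and 16.2, 14.7 and 14.9 CPM in TC + ATA. Both EV libraries were above every fusion-expressing library. Foxc1 had a log2 fold change of −0.78 in TC versus EV (SE 0.113, adjusted p = 9.48e-04 by edgeR's quasi-likelihood test with Benjamini-Hochberg adjustment). Foxc2 (ENSMUSG00000046714, chr8:121116171-121118895, plus strand) had 36.7 and 30.1 CPM in EV, 42.8 CPM in TC and 31.5, 28.4 and 27.5 CPM in TC + ATA. The TC library was the highest of the 6, and the EV and TC + ATA ranges overlapped. Foxc2 missed the limit in TC versus EV, at a log2 fold change of 0.36 (SE 0.129, adjusted p = 0.0705 by edgeR's quasi-likelihood test with Benjamini-Hochberg adjustment). Without EV replicate 1 it was called (adjusted p = 0.0013 by edgeR), and over 13 alternatives its adjusted p ran from 0.0013 to 1 with 3 calls.

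Several of these genes are neighbours, and members within 200 kb of each other were set side by side. On chromosome 8, Foxc2 lies 28026 bp from Foxf1, and Foxl1, a factor of gut mesenchyme, lies 9044 bp beyond Foxc2. Foxl1 had 2.99 and 4.16 CPM in EV, 2.19 CPM in TC and 2.199, 1.85 and 1.29 CPM in TC + ATA. All fusion-expressing libraries were under both EV libraries. For Foxl1 the TC versus EV log2 fold change of −0.71 missed the limit (SE 0.343, adjusted p = 0.167 by edgeR's quasi-likelihood test with Benjamini-Hochberg adjustment). It was called without EV replicate 1 (adjusted p = 0.044 by edgeR), and over 13 alternatives its adjusted p ran from 0.044 to 1. Foxf1, Foxc2 and Foxl1, which share a stretch of chromosome and a strand, thus gave unlike values.

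The long noncoding gene Fendrr starts on the other strand next to Foxf1, with 1275 bp between the annotated genes, and was chosen after its values were seen. Fendrr had 6 and 7 counts in EV, 100 in TC and 90, 75 and 97 in TC + ATA, so that the EV libraries were low and the others high, as for Foxf1. Fendrr had a log2 fold change of 4.04 in TC versus EV (SE 0.441, adjusted p = 1.72e-04 by edgeR's quasi-likelihood test with Benjamini-Hochberg adjustment).

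On chromosome 13, Foxf2 lies 64839 bp from Foxq1, and Foxc1 lies 175229 bp beyond Foxf2. Foxq1, known from hair and epithelial cells, had 49 and 36 counts in EV, 13 in TC and 20, 12 and 17 in TC + ATA, with both EV libraries highest. For Foxq1 the TC versus EV log2 fold change of −1.58 missed the limit (SE 0.669, adjusted p = 0.117 by edgeR's quasi-likelihood test with Benjamini-Hochberg adjustment), and it missed it in all 12 alternatives that tested it. Foxq1 shares 3200 of its 4843 exonic bases with A530084C06Rik on the opposite strand, which had 0 counts in every library. At this locus Foxq1, Foxf2 and Foxc1 had estimates of one sign, and 2 of the 3 passed the test. The last such pair was Foxd2 and Foxe3 on chromosome 4, 16273 bp apart, and Foxe3 had 0 counts throughout.

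**Figure D3:**
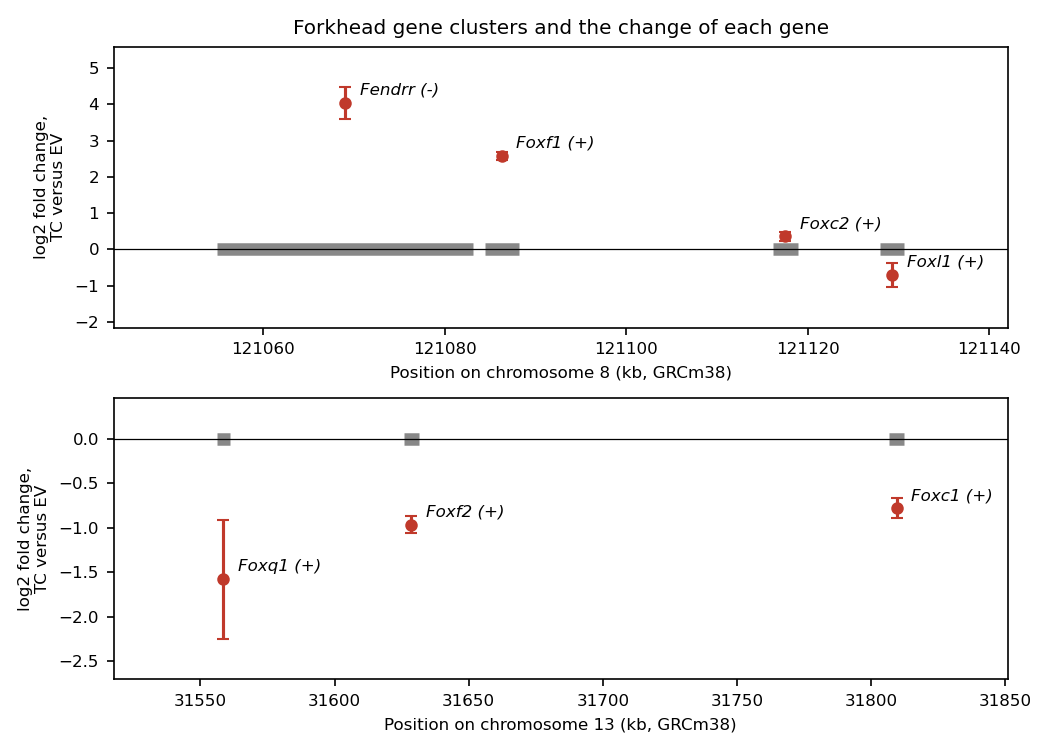
Log2 fold change in TC versus EV (red points, with bars of 1 SE) at the position in kb of each gene of the forkhead clusters on chromosomes 8 and 13, and of the noncoding neighbour Fendrr; grey blocks span the genes and signs give the strand. Foxf1 at 2.57 and Fendrr at 4.04 lie well above 0 and Foxc2 at 0.36 near it, while Foxq1, Foxf2 and Foxc1 lie below 0.

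FOXO factors leave the nucleus when AKT phosphorylates them, so that growth-factor signalling restrains them. Foxo3 (ENSMUSG00000048756, chr10:42181841-42276755, minus strand) had 46.3 and 43.9 CPM in EV, 32.9 CPM in TC and 33.0, 36.4 and 33.2 CPM in TC + ATA. Both EV libraries were above every other library. TC versus EV gave Foxo3 a log2 fold change of −0.46 (SE 0.0975, adjusted p = 0.00779 by edgeR's quasi-likelihood test with Benjamini-Hochberg adjustment). With a replicate block the call of Foxo3 was lost (adjusted p = 0.0612 by edgeR), within a range over 13 alternatives of 0.000745 to 1. Foxo6, a member known mainly from brain, was called from few counts, 149 and 133 in EV, 48 in TC and 54, 53 and 38 in TC + ATA. Its EV libraries were above the others, at a log2 fold change of −1.43 (SE 0.412, adjusted p = 0.0299 by edgeR's quasi-likelihood test with Benjamini-Hochberg adjustment). Without TC + ATA replicate 2 the call of Foxo6 was lost (adjusted p = 0.0547 by edgeR), as it was with a replicate block (0.056), and over 13 alternatives its adjusted p ran from 0.0111 to 0.642.

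The other FOXO genes did not pass in TC versus EV. Foxo1 lay between 7.32 and 8.60 CPM over the 6 libraries, and Foxo4 between 34.5 and 39.0 CPM. Foxo4 had the highest level of the FOXO genes per length, at 9.90 to 11.2 CPM per kb, against 4.34 to 6.12 for Foxo3 and 0.845 to 0.992 for Foxo1. The summed FOXO level was 17.8 and 17.8 CPM per kb in EV, 16.5 in TC and 16.7, 17.2 and 15.8 in TC + ATA. Foxo1 shares 674 exonic bases with the opposite-strand gene Gm20402, which had 0 counts in every library.

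Foxs1, a forkhead gene known from neural crest derivatives and perivascular cells, had 5.20 and 4.16 CPM in EV, 1.38 CPM in TC and 1.71, 1.40 and 1.68 CPM in TC + ATA. The EV libraries were the high ones and no library of another group reached them. Foxs1 had a log2 fold change of −1.76 in TC versus EV (SE 0.272, adjusted p = 0.00139 by edgeR's quasi-likelihood test with Benjamini-Hochberg adjustment), from −1.91 to −1.60 over 13 alternatives.

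FOXJ genes include Foxj1, the regulator of motile cilia, and the broadly expressed Foxj2 and Foxj3. Foxj3 (ENSMUSG00000032998, chr4:119537004-119629119, plus strand) had 58.2 and 59.3 CPM in EV, 77.3 CPM in TC and 77.5, 76.4 and 78.9 CPM in TC + ATA. The EV libraries were low and the other 4 lay together above them. Foxj3 had a log2 fold change of 0.40 in TC versus EV (SE 0.0756, adjusted p = 0.00425 by edgeR's quasi-likelihood test with Benjamini-Hochberg adjustment). In a fit of only the EV and TC libraries it missed the limit (adjusted p = 0.0827 by edgeR), as it did with a replicate block (0.0622), within a range over 13 alternatives of 0.000127 to 1. Foxj2 lay between 32.8 and 37.5 CPM and was not called by edgeR with the usual filter and all libraries. It was called in TC + ATA versus EV when at least 1 CPM in 2 libraries was required, and without EV replicate 2. Foxj1 had 6 to 23 counts per library.

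FOXP proteins repress transcription and form pairs with each other. Foxp1 (ENSMUSG00000030067, chr6:98925338-99522721, minus strand) had 45.1 and 47.8 CPM in EV, 56.2 CPM in TC and 48.3, 47.9 and 48.0 CPM in TC + ATA. The single TC library was the highest, and the EV and TC + ATA libraries lay close together below it. Foxp1 had a log2 fold change of 0.27 in TC versus EV (SE 0.08, adjusted p = 0.0317 by edgeR's quasi-likelihood test with Benjamini-Hochberg adjustment). This call was lost without TC + ATA replicate 1, 2 or 3 (adjusted p = 0.0793, 0.0888 and 0.0804 by edgeR) and with library-size scaling (adjusted p = 0.255 by edgeR). It was also lost with only the groups compared, with no filter on low counts and with a replicate block (adjusted p = 0.277, 0.0575 and 0.171 by edgeR). Foxp1 was called in 5 of 13 alternatives, within a range of 0.00211 to 1. Foxp4 had 113 and 114 CPM in EV, 115 CPM in TC and 98.0, 94.0 and 93.6 CPM in TC + ATA. Its EV and TC libraries lay together, above the treated ones. Foxp3, the factor of regulatory T cells, had 78 and 13 counts in EV, 5 in TC and 9, 98 and 86 in TC + ATA. These counts spread widely within EV and within TC + ATA. Exons of Ccdc22, Flicr, Gm36995 and Ppp1r3f overlap those of Foxp3, so the counts cannot be taken as its own level alone. Ccdc22 had 0 counts in every library, Gm36995 had 1 to 9, Flicr had 12 to 23 and Ppp1r3f had 38 to 98. Foxp2 had 2 to 10 counts per library.

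FOXK factors bring the SIN3 and BAP1 complexes to DNA. Foxk1 had 44.6 and 44.1 CPM in EV, 38.2 CPM in TC and 35.1, 38.0 and 35.1 CPM in TC + ATA. Foxk2 had 125 and 132 CPM in EV, 115 CPM in TC and 106, 112 and 106 CPM in TC + ATA. For both FOXK genes the EV libraries were the highest, and neither was called in TC versus EV with TMM scaling and all 6 libraries. Foxk1 was called there with library-size scaling and without EV replicate 1 or 2, and Foxk2 without EV replicate 1.

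The FOXN genes Foxn2 and Foxn3 are broadly expressed, and Foxn3 has been described as a repressor in cell-cycle checkpoints. Foxn2 lay between 41.6 and 47.6 CPM, with TC highest and the EV and TC + ATA ranges overlapping. Foxn3 had 9.13 and 11.4 CPM in EV, 12.3 CPM in TC and 15.0, 13.9 and 12.2 CPM in TC + ATA, so EV was the low group. Foxd2, a gene of kidney and facial mesenchyme, had 4.04 and 3.51 CPM in EV, 2.45 CPM in TC and 1.94, 3.498 and 1.77 CPM in TC + ATA. For Foxd2, TC + ATA replicate 2 stood next to the EV libraries. Foxn2 was called in no comparison under any alternative. Foxd2 was called in TC + ATA versus EV with no filter on low counts and without TC + ATA replicate 2, and not otherwise.

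Among the SoxC factors, which act in mesenchymal and neural progenitors, Sox4 (ENSMUSG00000076431, chr13:28948919-28953713, minus strand) had 200.3 and 224 CPM in EV, 143 CPM in TC and 152, 158 and 143 CPM in TC + ATA. Both EV libraries were above every fusion-expressing library. Sox4 had a log2 fold change of −0.57 in TC versus EV (SE 0.1, adjusted p = 0.00294 by edgeR's quasi-likelihood test with Benjamini-Hochberg adjustment), from −0.68 to −0.49 over 13 alternatives. The noncoding gene Gm26735 lies opposite 2616 of the 4795 exonic bases of Sox4 and was not analysed here. Whether reads were counted by strand is not stated, so reads of such a pair cannot be told apart. Sox12 had 119 and 104 CPM in EV, 120.2 CPM in TC and 109, 118 and 109 CPM in TC + ATA. Sox12 was not called in any comparison with all 6 libraries, and its EV and TC + ATA ranges overlapped. Sox11 had 10 to 32 counts per library.

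SoxD factors lack an activation domain of their own and work with SOX9 in cartilage. Sox5 (ENSMUSG00000041540, chr6:143828425-144781977, minus strand) had 10.6 and 10.6 CPM in EV, 3.85 CPM in TC and 5.28, 5.19 and 5.03 CPM in TC + ATA. The TC library was the lowest, the treated libraries lay a little above it, and both EV libraries were far above these. Sox5 had a log2 fold change of −1.46 in TC versus EV (SE 0.148, adjusted p = 1.06e-04 by edgeR's quasi-likelihood test with Benjamini-Hochberg adjustment), from −1.57 to −1.45 over 13 alternatives with a call in all 13. The opposite-strand gene Sox5os1 shares 1330 of the 14376 exonic bases of Sox5 and had at most 2 counts. The other SoxD genes were low, Sox6 with 40 to 68 counts per library and Sox13 with 6 to 22. Sox6 and Sox13 were not called.

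Sox9 (ENSMUSG00000000567, chr11:112782224-112787760, plus strand), the SoxE factor of cartilage and of several stem cell pools, had 54.5 and 56.3 CPM in EV, 47.3 CPM in TC and 33.4, 32.6 and 30.3 CPM in TC + ATA. The groups stood in the order EV, TC, TC + ATA without overlap. In TC versus EV it missed the limit, at a log2 fold change of −0.23 (SE 0.0912, adjusted p = 0.0984 by edgeR's quasi-likelihood test with Benjamini-Hochberg adjustment). That difference of Sox9 was called with library-size scaling (adjusted p = 0.0412 by edgeR) and without EV replicate 1. It was called in 2 of 13 alternatives, over which its log2 fold change ran from −0.34 to −0.21. Sox8, also SoxE, had 1 to 25 counts per library.

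In TC + ATA versus TC, edgeR's quasi-likelihood test with Benjamini-Hochberg adjustment called 1 of the 35 tested members lower (2.86%), beside 0.156% of all genes tested. This was Sox9, with a log2 fold change of −0.56 (SE 0.0836, adjusted p = 0.0259 by edgeR). All 3 treated libraries were under the TC library. The call was lost without TC + ATA replicate 1, 2 or 3 (adjusted p = 0.107, 0.165 and 0.174 by edgeR) and with library-size scaling or a replicate block (adjusted p = 0.0657 and 0.273 by edgeR). It was kept by DESeq2 (adjusted p = 4.3e-05), and the adjusted p of Sox9 over 13 alternatives ran from 4.3e-05 to 1 with 7 calls, while the log2 fold change stayed between −0.59 and −0.52. EdgeR and DESeq2 each called 0 members higher, beside 0.426% of all genes tested by edgeR, and 2 members, Foxp3 and Sox5, were higher at an unadjusted p under 0.05. The number of members called lower was 4 without EV replicate 1, 4 without EV replicate 2 and 0 when TC + ATA replicate 1, 2 or 3 was left out. Over all genes the number called lower went from 29 to 762 and 608 without EV replicate 1 or 2, and to 12, 7 and 3 without TC + ATA replicate 1, 2 or 3.

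Foxc2 was the next in size among the well detected members. From 42.8 CPM in TC against 31.5, 28.4 and 27.5 CPM in TC + ATA, its log2 fold change was −0.56 (SE 0.12, adjusted p = 0.107 by edgeR's quasi-likelihood test with Benjamini-Hochberg adjustment). Foxc2 was called by DESeq2 (adjusted p = 0.00993) and by edgeR without EV replicate 1 or 2 (adjusted p = 0.00128 and 0.00138), and its adjusted p over 13 alternatives ran from 0.00118 to 1 with 5 calls. The TC library of Foxc2 was above all 3 treated libraries, of which 1 lay in the EV range and 2 lay under it.

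Foxp4 had a log2 fold change of −0.27 in TC + ATA versus TC (SE 0.0716, adjusted p = 0.188 by edgeR's quasi-likelihood test with Benjamini-Hochberg adjustment). Foxp1 had −0.23 (SE 0.0753, adjusted p = 0.344 by edgeR). Foxp4 and Foxp1 were called with only the groups compared (adjusted p = 0.00379 and 0.028 by edgeR) and without EV replicate 1 or 2. Each was called in 3 of 13 alternatives. Over 13 alternatives the adjusted p ran from 0.00304 to 1 for Foxp4 and from 0.0216 to 1 for Foxp1. For both FOXP genes the TC library was above all treated libraries.

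Sox5 had a log2 fold change of 0.43 in TC + ATA versus TC (SE 0.138, adjusted p = 0.322 by edgeR's quasi-likelihood test with Benjamini-Hochberg adjustment) and was called in 0 of 13 alternatives. Its treated libraries, at 5.03 to 5.28 CPM, lay above the TC library at 3.85 CPM and under EV at 10.6 CPM. Foxf1, at 22.3 to 22.8 CPM in TC + ATA beside 23.7 CPM in TC, and Foxj3, at 76.4 to 78.9 CPM beside 77.3 CPM, were not called. Foxf2, Foxc1, Foxo3, Foxs1 and Sox4 each had every treated library above the TC library, some of them barely, and under the EV libraries, and were not called. With 1 TC library, these tests do not show that levels in TC and TC + ATA were the same.

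In TC + ATA versus EV both groups have replicates, but they differ in both the fusion and ATA. No EV library received ATA, so fusion and compound cannot be told apart in this comparison. Here edgeR's quasi-likelihood test with Benjamini-Hochberg adjustment called 3 of the 35 tested members higher, Foxf1, Foxj3 and Foxn3, beside 18% of all genes tested. It called 13 members lower (37.1%), beside 18.6% of all genes tested. Among these were Foxc1, Foxf2, Foxk1, Foxk2, Foxl1, Foxo3, Foxo6, Foxp4, Foxs1, Sox4, Sox5 and Sox9. Foxf1 had a log2 fold change of 2.50 (SE 0.0868, adjusted p = 1.67e-07 by edgeR). Sox5 had −1.04 (SE 0.101, adjusted p = 5.78e-05 by edgeR), and Sox9 had −0.79 (SE 0.067, adjusted p = 2.43e-05 by edgeR). In these 3 genes no treated library overlapped an EV library, which was common among members. Of the 24 with a mean of at least 1 CPM, 5 had every treated library above EV and 15 had every one below. The other 4 overlapped, and the share over all genes was not counted.

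The members called in TC + ATA versus EV and not in TC versus EV were Foxk1, Foxk2, Foxl1, Foxn3, Foxp4 and Sox9, and whether their differences differed between the comparisons was not tested. Foxn3 had a log2 fold change of 0.42 (SE 0.126, adjusted p = 0.0295 by edgeR's quasi-likelihood test with Benjamini-Hochberg adjustment). It lost the call without EV replicate 1 (adjusted p = 0.0983 by edgeR) and without TC + ATA replicate 1 or 2 (0.105 and 0.087), and with library-size scaling (0.111), within a range over 13 alternatives of 0.00205 to 1. Foxk2 had −0.25 (SE 0.0607, adjusted p = 0.0107 by edgeR) and lost the call without TC + ATA replicate 1 or 3 (adjusted p = 0.0624 and 0.062) and with a replicate block (0.109), within a range of 0.000176 to 1. Foxp4 had −0.25 (SE 0.0571, adjusted p = 0.00747 by edgeR) and lost it without TC + ATA replicate 2 (adjusted p = 0.0563) and with a replicate block (0.104), within a range of 0.000298 to 1. Foxk1 at −0.30 (SE 0.066, adjusted p = 0.00719 by edgeR) and Foxl1 at −1.01 (SE 0.248, adjusted p = 0.0116 by edgeR) kept their calls with each library left out and lost them with a replicate block (adjusted p = 0.0759 and 0.0513 by edgeR). Over 13 alternatives the adjusted p ran from 0.00244 to 1 for Foxk1 and from 0.000402 to 1 for Foxl1.

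Genes around the FOX and SOX factors were read from lists. Of 15 upstream regulators of FOXO proteins, all tested, 2 were called higher and 4 lower in TC versus EV, beside 14.8% and 13.2% of all genes tested, with a median log2 fold change of −0.09 beside −0.03 over all genes. Pik3r1, a regulatory subunit of PI3-kinase, had 98.6 and 99.99 CPM in EV, 54.8 CPM in TC and 62.7, 62.8 and 60.1 CPM in TC + ATA, with a TC versus EV log2 fold change of −0.86 (SE 0.081, adjusted p = 7e-05 by edgeR's quasi-likelihood test with Benjamini-Hochberg adjustment). Pdpk1, the kinase that activates AKT, had −0.56 (SE 0.091, adjusted p = 0.00182 by edgeR). Sgk3, a kinase related to AKT, had 1.52 (SE 0.35, adjusted p = 0.011 by edgeR) from a low level of 0.481 and 0.76 CPM in EV. Stk4, the MST1 kinase, had 0.41 (SE 0.0842, adjusted p = 0.00623 by edgeR). Its call was lost with library-size scaling, with only the groups compared and with a replicate block (adjusted p = 0.0536, 0.069 and 0.0689 by edgeR), within a range over 13 alternatives of 0.00046 to 1. Between TC and TC + ATA, edgeR and DESeq2 each called 0 of these 15 in either direction, with 1 higher and 1 lower at an unadjusted p under 0.05. Leaving out EV replicate 1 gave 1 lower and leaving out EV replicate 2 gave 1 higher.

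Of 19 reported FOXO targets, all tested, 4 were called higher and 7 lower in TC versus EV, beside 14.8% and 13.2% of all genes tested, with a median of −0.12 beside −0.03 over all genes. Txnip, which restrains glucose uptake, had 62.1 and 63.4 CPM in EV, 23.4 CPM in TC and 38.9, 37.8 and 39.0 CPM in TC + ATA. The treated libraries of Txnip stood between the TC library and the EV libraries. Txnip had a log2 fold change of −1.42 in TC versus EV (SE 0.0865, adjusted p = 5.47e-06 by edgeR's quasi-likelihood test with Benjamini-Hochberg adjustment). In TC + ATA versus TC it was 0.72 (SE 0.0805, adjusted p = 0.00759 by edgeR), and Txnip was the 1 target called in that comparison. That call was lost without TC + ATA replicate 1, 2 or 3 (adjusted p = 0.0523, 0.0567 and 0.0815 by edgeR) and with a replicate block (0.105), within a range over 13 alternatives of 4.35e-10 to 1. Without EV replicate 1 or 2, 5 targets were called higher. Sesn3, a stress-induced sestrin, had −1.64 in TC versus EV (SE 0.154, adjusted p = 6.79e-05 by edgeR). Gadd45a, a DNA damage response gene, had 1.58 (SE 0.111, adjusted p = 1.24e-05 by edgeR), and the transcription factor gene Klf2 had 0.65 (SE 0.138, adjusted p = 0.00746 by edgeR). Called FOXO targets were thus found in both directions.

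Of 15 reported cartilage targets of SOX9, SOX5 and SOX6, 7 were tested. Col2a1 and Acan, which define cartilage, stayed at or under 0.115 CPM. Matn3 had 0.16 and 0.184 CPM in EV, 4.004 CPM in TC and 5.24, 4.19 and 5.36 CPM in TC + ATA, with a TC versus EV log2 fold change of 4.53 (SE 0.275, adjusted p = 5.46e-06 by edgeR's quasi-likelihood test with Benjamini-Hochberg adjustment). Matn4, like Matn3 a matrilin of extracellular matrix, had 3.34 (SE 0.573, adjusted p = 0.00242 by edgeR). The estimate of Matn4 rested on few EV counts, 15 and 3, and was 4.89 without EV replicate 1 and 2.60 without EV replicate 2. Col11a1, a fibrillar collagen chain, had 10.1 and 10.6 CPM in EV, 2.13 CPM in TC and 2.85, 3.67 and 3.00 CPM in TC + ATA, with −2.28 in TC versus EV (SE 0.208, adjusted p = 5.82e-05 by edgeR). These made 2 calls higher and 1 lower of 7 (2 lower without EV replicate 1), beside 14.8% and 13.2% of all genes tested, and the median of the list was 0.27. EdgeR and DESeq2 each called 0 of the 7 in TC + ATA versus TC, with 1 higher at an unadjusted p under 0.05.

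Hedgehog response genes were listed because FOXF genes answer to that pathway. Of the 4 genes listed, Ptch1 was the 1 called higher in TC versus EV (beside 14.8% of all genes tested), with 15.5 and 15.5 CPM in EV, 24.0 CPM in TC and 23.0, 24.9 and 23.4 CPM in TC + ATA. For Ptch1 the log2 fold change was 0.63 (SE 0.0981, adjusted p = 0.00142 by edgeR's quasi-likelihood test with Benjamini-Hochberg adjustment). Gli1 was not called and lay between 0.945 and 1.76 CPM with overlapping groups. By edgeR and by DESeq2, 0 of the 4 genes were called in TC + ATA versus TC, with 1 lower at an unadjusted p under 0.05.

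Of 19 cofactors of FOX and SOX proteins, all tested, 1 was called higher and 6 lower in TC versus EV, beside 14.8% and 13.2% of all genes tested, with a median of −0.08 beside −0.03 over all genes. Without EV replicate 2, 4 were called higher. Tle2, a Groucho corepressor, had 36.1 and 61.2 CPM in EV, 8.22 CPM in TC and 12.7, 12.0 and 14.2 CPM in TC + ATA, with a log2 fold change of −2.56 (SE 0.292, adjusted p = 2.25e-04 by edgeR's quasi-likelihood test with Benjamini-Hochberg adjustment). Tle6, of the same family, had −2.26 (SE 0.202, adjusted p = 5.15e-05 by edgeR). Asxl1, a partner of BAP1, had 0.55 (SE 0.0831, adjusted p = 0.00127 by edgeR). In TC + ATA versus TC, edgeR and DESeq2 each called 0 of the 19, with 1 higher and 1 lower at an unadjusted p under 0.05, and edgeR called 1 higher without EV replicate 1 or 2.

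Markers of cell types known for Fox or Sox genes were read for each library, and their part in the results was not tested. Their calls in TC versus EV stand beside 14.8% higher and 13.2% lower over all genes tested. The 10 endothelial markers, all tested, summed to 15.4 and 14.2 CPM in EV, 38.8 in TC and 50.5, 45.6 and 43.5 in TC + ATA. Flt1, with the highest CPM of the list at a mean of 29.8, made up most of that sum. Pecam1, which defines endothelium, lay between 0.59 and 1.24 CPM. In TC versus EV, 2 of the 10 were called higher (1 without TC + ATA replicate 1, 2 or 3) and 0 lower. Those called higher were Flt1 and Cdh5. Cdh5 had 0.655 and 0.315 CPM in EV, 1.43 CPM in TC and 0.581, 0.804 and 0.618 CPM in TC + ATA. Its TC versus EV log2 fold change was 1.55 (SE 0.475, adjusted p = 0.0386 by edgeR). Of 7 neural crest and Schwann markers, 6 were tested and 2 were called lower in TC versus EV, and the list summed to 34.5 and 39.8 CPM in EV, 20.2 in TC and 22.4, 21.0 and 21.3 in TC + ATA, with the highest CPM for Erbb3. Of 6 neural progenitor markers, 2 were tested and 1 was called higher in TC versus EV. They summed to 27.7 and 23.9 CPM in EV, 80.5 in TC and 53.0, 54.9 and 50.1 in TC + ATA, with the highest CPM for Nes and Fabp7 at 0 in every library.

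The 8 chondrocyte markers summed to at most 0.618 CPM in any library, Comp had the highest CPM, and Hapln1 and Cnmd were at 0 in every library. The 7 epithelial markers summed to at most 1.32 CPM, with the highest CPM for Krt19. Only 1 of the 8 chondrocyte and 3 of the 7 epithelial markers had enough counts to be tested, so most of both lists has no test. Of those tested in TC versus EV, edgeR and DESeq2 called 0, and 0 had an unadjusted p under 0.05. The epithelial list had 1 call higher without EV replicate 1 or 2. The 6 muscle markers summed to 495 and 373 CPM in EV, 654 in TC and 1286, 1267 and 1216 in TC + ATA. Most of that was Acta2, which is also used by activated fibroblasts, while Myod1 and Myog, which define skeletal muscle, were at or under 1.18 CPM. Des, also on the muscle list, lay between 26.2 and 42.4 CPM. Acta2 was the 1 marker of the muscle list called higher in TC versus EV. It was also the 1 called higher in TC + ATA versus TC, and this second call was lost without TC + ATA replicate 1, 2 or 3.

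The members tested at a mean under 1 CPM were Foxa3, Foxj1, Foxp2, Foxp3, Foxq1, Sox6, Sox8, Sox11, Sox13, Sox15 and Sox18. Foxa3 had 6 to 20 counts per library and Sox15, which overlaps Mpdu1 on the opposite strand, had 1 to 10. Sox18, a SoxF factor of endothelium, had 31 and 16 counts in EV, 42 in TC and 43, 31 and 45 in TC + ATA. None of the 11 was called by edgeR with the usual filter and all libraries. Foxp3 was called in TC versus EV with no filter on low counts, in a fit of only the EV and TC libraries and without EV replicate 2, and Sox8 and Sox18 were called in TC + ATA versus EV without EV replicate 1.

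The members that were not tested but had counts were Foxa1 (at most 5 counts in a library), Foxa2 (2), Foxd1 (1), Foxd3 (2), Foxd4 (6), Foxh1 (4), Foxn1 (10), Sox2 (2), Sox7 (7), Sox10 (2), Sox17 (10) and Sox30 (4). The 15 members with 0 counts in every library were Foxb1, Foxb2, Foxe1, Foxe3, Foxi1, Foxi2, Foxi3, Foxl2, Foxn4, Foxr1, Foxr2, Sox1, Sox3, Sox14 and Sox21. Sox2, the SoxB1 factor of pluripotent and neural stem cells, and the FOXA pioneers of liver and gut, Foxa1 and Foxa2, were thus at or near the limit of detection in every group.

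Promoter windows of 300 bases, 250 before and 50 after the annotated start, came from RefSeq on GRCm38.p6 and matched 41 of the 62 members, 21 of them tested. The 6 letters CATTCC, which TEAD factors recognise, or GGAATG on the other strand were in 14.7% of all 32851 windows and in 8 of the 51 windows of members (15.7%), those of Foxb2, Foxo3, Foxp1, Foxr2, Sox4, Sox5 and Sox6. The forkhead letters GTAAACA, or on the other strand TGTTTAC, were in 3.65% of all windows and in 2 of the 51 (3.92%), those of Foxa1 and Sox12. The SOX letters ACAATG, or on the other strand CATTGT, were in 12.6% and in 5 of the 51 (9.8%), those of Foxd4, Foxp1, Sox5 and Sox6. The AP-1 letters TGANTCA, with N for any base and the same on both strands, were in 7.81% and in 2 of the 51 (3.92%), those of Foxe3 and Foxn3. On the given strand alone the TEAD letters were in 7.54% of all windows and in 6 of the 51.

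Of the 11 members called in TC versus EV, 7 had a window and 4 of these, Foxo3, Foxp1, Sox4 and Sox5, held the TEAD letters. Among all 41 members with a window, 7 held them in at least 1 window. Members can have more than 1 window. The 14.7% over all windows is not a share per gene, so it gives no background for these counts. Foxf1, Foxo6 and Foxs1 were among those without a window. The bases before the start that precede any annotated exon are printed for Sox5, Sox4 and Foxo3, the members called lower whose letters lie there, so that the letters can be seen in place. All 3 are on the minus strand of GRCm38.p6 and are written 5′ to 3′, with the TEAD letters of either strand in capitals. The stretch of Sox5 is chr6:143947107-143947356, inside the annotated gene and outside its annotated exons, that of Sox4 is chr13:28953714-28953949, and that of Foxo3 is chr10:42276756-42276945. A match is a description, not a site or a cause, and a window without these letters says nothing about the factor.
Sox5: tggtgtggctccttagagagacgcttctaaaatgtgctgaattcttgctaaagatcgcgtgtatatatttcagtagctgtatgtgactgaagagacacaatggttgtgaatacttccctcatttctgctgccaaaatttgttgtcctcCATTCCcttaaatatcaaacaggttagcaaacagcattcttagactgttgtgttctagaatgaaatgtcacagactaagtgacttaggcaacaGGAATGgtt
Sox4: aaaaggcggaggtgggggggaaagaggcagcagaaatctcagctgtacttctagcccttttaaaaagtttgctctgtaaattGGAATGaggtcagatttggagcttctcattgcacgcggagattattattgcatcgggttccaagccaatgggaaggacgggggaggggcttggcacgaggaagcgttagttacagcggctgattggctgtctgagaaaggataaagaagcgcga
Foxo3: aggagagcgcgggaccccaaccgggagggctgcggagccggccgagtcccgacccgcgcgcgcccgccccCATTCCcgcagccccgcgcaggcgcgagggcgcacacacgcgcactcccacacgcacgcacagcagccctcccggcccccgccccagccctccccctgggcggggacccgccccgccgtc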

How the data were processed

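RNA from 6 libraries of NIH3T3 cells was analysed (EV 2, TC 1, TC + ATA 3). The values are raw counts of reads per gene, deposited by the authors without normalization, who aligned paired-end reads to GRCm38.p6 with HISAT2 2.2.1 in Galaxy and counted them with featureCounts. The annotation release and the use of strand in that step are not stated.

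From these counts, R 4.3.3 and edgeR 4.0.16 fitted a quasi-likelihood model to all libraries at once (TMM, filterByExpr) with Benjamini-Hochberg adjustment. A call needs an adjusted p of at most 0.05, and in TC versus EV an absolute log2 fold change of at least 2 was also applied as a stricter limit, as in the paper. The standard error is the absolute log2 fold change over the square root of F. Positions and exonic lengths came from GENCODE M21. The steps were tested on simulated data.

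Members and lists were chosen with earlier results of these data known. With exceptions, tested members with a mean of 1 CPM or more are named with their values, tested members under that by counts, and untested ones by name and highest count. From each pathway list, up to 2 called increases and 2 called decreases of largest size in TC versus EV with that mean are named, and any called in TC + ATA versus TC. Fendrr and the Hedgehog gene Gli1 were added with their values already seen.

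The alternatives were library-size and upper-quartile scaling, DESeq2 1.42.0, a fit of only the groups compared, no filter on low counts, at least 1 CPM in 2 libraries, a replicate block, a test against a log2 fold change of 1, and fits without 1 of the EV or TC + ATA libraries.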

Additional observations from a re-analysis of the deposited data

How the results depend on the processing

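No gene followed through the alternatives reversed the sign of its log2 fold change. The split over all genes in TC versus EV did turn with library-size scaling. Medians over all genes changed sign under some alternatives, such as −0.0107 to 0.00536 with DESeq2 in TC + ATA versus EV. Values that changed are given here, and the cause was not tested.

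Counts are for Fox and Sox genes and then for all genes. In TC versus EV, 3 members and 2735 genes were higher and 8 and 2456 lower. A test against a log2 fold change of 1 gave 1 and 474 higher and 1 and 297 lower, and 289 and 146 genes (of 438 and 236) beyond the limit of 2. With only the groups compared, 1 member was higher and 1 was lower beyond that limit, as was 1 with no filter on low counts. With at least 1 CPM in 2 libraries, 248 genes were higher beyond it. Library-size scaling gave 2072 genes higher and 3160 lower.

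In TC + ATA versus TC, 79 genes were higher and 29 lower, with 1 member lower. DESeq2 gave 285, 113 and 2, only the groups compared 795, 633 and 4, no filter 242, 108 and 2, and the fold change test 1, 3 and 0. Library-size scaling gave 0 members lower. In TC + ATA versus EV, the fold change test gave 1 member and 553 genes higher (of 3 and 3340) and 1 and 259 lower (of 13 and 3449).

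With the replicate block, TC versus EV had 1 member and 1717 genes higher and 5 and 1467 lower, TC + ATA versus TC had 32 genes higher and 8 lower with 0 members lower, and TC + ATA versus EV had 8 members and 2195 genes lower. The block joins libraries that share only a number, number 1 in all 3 groups and number 2 in EV and TC + ATA. In the 2 same-numbered pairs of EV and TC + ATA the mean correlation was −0.09.

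With 1 replicate left out, TC versus EV had 2 to 5 members higher, 1912 to 3708 genes lower and 0 to 1 member lower beyond the limit of 2. TC + ATA versus TC had 7 to 808 genes higher, 3 to 762 lower and 0 to 4 members lower. Without an EV replicate, the lone EV library is assumed to vary like the other groups. Libraries of a group differed by more than counting error, so the number of libraries, which is 1 for TC, limits the precision.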
